A study of Mus musculus with 6 samples.

Results

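The interleukin-1 family genes Il1a, Il1b, Il1rn, Il18, Il33, Il18bp, Il1r1, Il1rap and Il1r2 were followed in mouse alveolar macrophages, the resident phagocytes of the lung airspaces. They are 9 of the 23413 genes in the deposited count table and were taken by symbol, as the main interleukin-1 type cytokines with their antagonists and receptors. They and the gene lists below were chosen with earlier results of these data known. Shares of them called, set beside all genes, are therefore descriptions and no test. Of these, 8 passed the filter on low counts that left 10724 genes for testing, and Il1r2 did not. The cells came from wild-type (WT) mice by lavage, and no other allele is given for any group. RNA-seq was done on LPS + VD3 cells, which had received 100 ng/mL lipopolysaccharide (LPS) with 50 nM vitamin D3 for 4 h in vitro, on LPS cells, which had received LPS alone for the same time, and on control cells. Each group had 2 libraries. The age and number of mice and any mock treatment of the control cells are not stated in the labels. No label ties the libraries to separate mice or separate cultures, so p-values measure only how far these particular libraries differ, and that spread may be technical.

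Interleukin-1 alpha and interleukin-1 beta, encoded by Il1a and Il1b, bind the same receptor, which is built from the ligand-binding chain Il1r1 and the accessory chain Il1rap and signals through Myd88 and Irak kinases to NF-kB. Il1rn encodes the receptor antagonist, which occupies Il1r1 without recruiting the accessory chain, and Il1r2 encodes a decoy receptor that lacks the signalling domain. Il18 and Il33 encode further members of the family, and Il18bp a secreted protein that neutralises interleukin-18. Interleukin-1 beta and interleukin-18 are made as precursors that caspase-1 cleaves in inflammasomes, whereas interleukin-1 alpha and interleukin-33 can act as alarmins released from damaged cells. LPS is sensed through Tlr4, which shares Myd88 with the interleukin-1 receptor.

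The libraries held 5198957 and 5465223 counts in LPS + VD3, 5148787 and 5298428 in LPS, and 5022314 and 5454955 in control. Library LPS 1 stood apart. Its title comes from another number series than the other 5. Across genes, the log ratio of the LPS libraries to each other ran with transcript GC content (Spearman's rho 0.655), against 0.180 between the LPS + VD3 and 0.235 between the control libraries. Results of the members are therefore given with and without LPS 1 where that library decides them. Levels are given as CPM, counts relative to library size, scaled by the trimmed mean of M values (TMM). In bulk RNA, fewer cells of a type and less RNA per cell cannot be told apart. Of the markers of alveolar macrophages, 17 of 17 listed in the table had enough counts to be tested, with summed levels of 42372 to 45578 CPM in LPS + VD3, 44378 to 51746 CPM in LPS and 40737 to 41763 CPM in control. The sum hides moves of single markers in both directions. Siglecf, listed as Siglec5, had 459 and 504 counts in LPS + VD3, 447 and 411 in LPS and 1243 and 1290 in control. Marco had 15994 and 19651 counts in LPS + VD3, 17204 and 17154 in LPS and 8363 and 8985 in control.

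The first question was which of these genes responded to LPS within 4 h, from LPS against control. Il1a, Il1b, Il1rn, Il18 and Il33 rose and Il1r1 fell, while Il18bp and Il1rap did not pass. That is 6 of 8 tested members by edgeR's quasi-likelihood test with Benjamini-Hochberg adjustment over all genes, beside 31.8% of all 10724 genes. The members' median log2 fold change was 1.56, against 0.01 over all genes. Of all calls, 49.2% were higher, and 26.2% without scaling beyond library size, a setting that moves the median of all genes by -0.29 on the log2 scale. That setting gave the same 5 higher and 1 lower counts of members. The 3411 calls over all genes became 1975 without control 1 and 1940 without control 2, and the members called became 4 in either case.

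Il1b had 12300 and 10212 CPM in the LPS libraries, against 49.9 and 43.0 CPM in the control libraries. Both LPS libraries were far above both control libraries, and Il1b ranked 5 and 6 among all genes by CPM in LPS 1 and LPS 2, and 3446 and 3875 in control 1 and control 2. The log2 fold change was 7.92 ± 0.22 (SE; edgeR adjusted p = 8.08e-09), the 36th largest rise of all genes tested. Il1a had 9644 and 11231 CPM in LPS and 156 and 151 CPM in control, again with no overlap. Its log2 rise was 6.09 ± 0.20 (edgeR adjusted p = 2.53e-08). The pair took 2.08% of all counts in LPS 1 (95% Wilson interval 2.06 to 2.09) and 2.00% in LPS 2 (1.99 to 2.01), and 0.0239% in control 1 (0.0226 to 0.0253) and 0.0222% in control 2 (0.0210 to 0.0235). The intervals hold counting error within a library and nothing else. As no molecular identifiers tell reads of the same molecule apart, even that error may be understated.

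On the mm10 build Il1b lies on chromosome 2 at 129364570 to 129371139 and Il1a on the same chromosome at 129299610 to 129309972, both on the minus strand. The 250 bases before their RefSeq starts are shown because they had the largest rises among the 9 genes. Sequences are from RefSeq on GRCm38.p6, written 5′ to 3′ on the gene's strand, and capitals mark matches, on either strand, to the motifs named after them.
Il1b, chr2:129371140-129371389, minus strand: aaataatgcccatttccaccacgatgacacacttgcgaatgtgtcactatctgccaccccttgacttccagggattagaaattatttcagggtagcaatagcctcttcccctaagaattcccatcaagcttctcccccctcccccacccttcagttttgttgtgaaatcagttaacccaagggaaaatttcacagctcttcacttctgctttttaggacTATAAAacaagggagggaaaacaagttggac
Il1a, chr2:129309973-129310222, minus strand: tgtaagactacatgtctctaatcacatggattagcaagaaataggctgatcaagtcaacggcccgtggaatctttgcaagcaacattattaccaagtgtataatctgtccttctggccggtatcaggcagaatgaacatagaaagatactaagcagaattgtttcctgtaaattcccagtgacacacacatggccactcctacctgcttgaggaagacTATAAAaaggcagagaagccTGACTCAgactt

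Matches were sought to the TATA box (TATAAA), AP-1 (TGANTCA), NF-kB (GGG and TTCC with 3 free bases between), interferon regulatory factors (GAAA repeated after 2 free bases) and the vitamin D receptor with its partner RXR (GNTCA repeated after 4 free bases). Over 32851 windows of the same length, these letters occurred in 12.4%, 6.75%, 4.65%, 2.98% and 0.548% of windows in that order, and none of the matches shown overlaps another. Il1b held TATAAA at 31 to 26 bases before the start, and Il1a at 32 to 27 bases. Il1a also held TGACTCA at 12 to 6 bases before its start. The other members lie on several chromosomes of mm10. Il1rn is on chromosome 2 at 24336853 to 24351494 and Il18 on chromosome 9 at 50554827 to 50581840. Il18bp is on chromosome 7 at 102014885 to 102018690, Il1rap on chromosome 16 at 26581704 to 26730117 and Il1r2 on chromosome 1 at 40074079 to 40125231. Il1rn held TGAGTCA before its first and an NF-kB match before the last of its 3 annotated starts. Il18 held a TATA box match on the opposite strand, and Il1r1 an NF-kB match before its second start. A match is a description of letters and not evidence of binding, and counts per gene do not tell the starts of a gene apart.

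**Figure D1:**
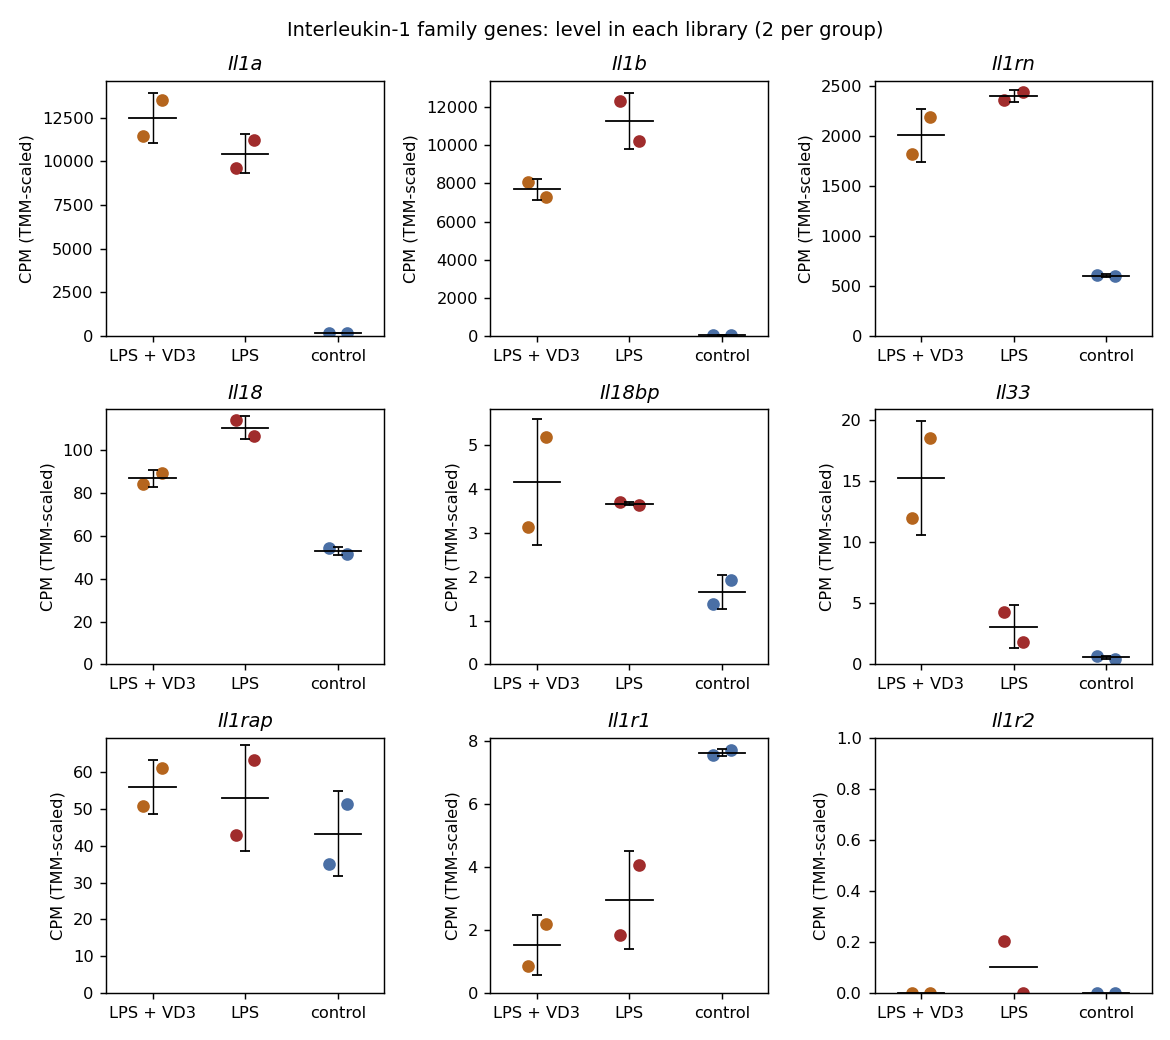
TMM-scaled CPM (linear axes from 0) of the 9 genes in each library, with points for libraries, horizontal lines for group means and bars for the SD (n = 2; no SD for Il1r2). Il1a and Il1b lie between 7289 and 13491 CPM in all 4 stimulated libraries and at 156 CPM or less in control, while Il33 is highest in LPS + VD3 and Il1r1 in control.

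Il1rn, the receptor antagonist, had 2355 and 2437 CPM in LPS and 612 and 595 CPM in control. It was already among the more abundant genes of control cells, at rank 155 and 167, and its log2 rise was 1.99 ± 0.15 (edgeR adjusted p = 6.59e-06). Il18 had 114 and 107 CPM in LPS and 54.5 and 51.8 CPM in control, with no overlap. It rose by 1.06 ± 0.15 (edgeR adjusted p = 0.000457), the smallest rise among the members called. Its neutraliser Il18bp had 18 and 18 counts in LPS and 8 and 12 in control, a log2 fold change of 1.14 ± 0.43 that did not pass (edgeR adjusted p = 0.0707, and 0.0430 with GC offsets). Il18bp shares 80 of its exonic bases with Numa1 on the opposite strand, and since the strand setting of the counting is not given, reads of that stretch cannot be told apart. The same holds for Il1a, which shares 222 exonic bases with the noncoding gene Gm14023, for Il1b, which shares 25 with Il1bos, and for Il1rap, which shares 552 with Gm20319.

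Il33 was scarce in these cells, and it passed the low-count filter only through its counts in LPS + VD3. It had 21 and 9 counts in LPS and 4 and 3 in control, or 4.31 and 1.82 CPM against 0.685 and 0.481 CPM. The groups did not overlap, but the LPS libraries differed by more than the distance of LPS 2 from control. Il33 rose by 2.35 ± 0.66 (edgeR adjusted p = 0.0212). This call rests on LPS 1, without which the log2 fold change was 1.59 (edgeR adjusted p = 0.139). It was also lost without control 1 (0.0610), without control 2 (0.109) and with no filter beyond 1 count (0.0631).

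Il1r1, the signalling receptor chain, had 9 and 20 counts in LPS and 44 and 48 in control, or 1.85 and 4.05 CPM against 7.54 and 7.69 CPM. Both LPS libraries were below both control libraries. The decrease of Il1r1 was -1.36 ± 0.40 in log2 units (edgeR adjusted p = 0.0266). Without LPS 1 the value was -0.93 (adjusted p = 0.0846) and without LPS 2 it was -2.03 (0.00412). The call was also lost without control 1 (0.0943) or control 2 (0.109), with no filter beyond 1 count (0.0621) and with DESeq2 (0.0894). Il1rap, the accessory chain, had 42.9 and 63.3 CPM in LPS and 35.1 and 51.4 CPM in control. The groups overlapped and the log2 fold change of 0.29 ± 0.24 did not pass (edgeR adjusted p = 0.397). Il1r2, the decoy receptor, had a single count in LPS 1 and 0 in the other 5 libraries. At this depth 0 counts in a library allow up to 0.549 to 0.597 CPM of the unscaled library total, taking 3 counts as the limit.

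**Figure D2:**
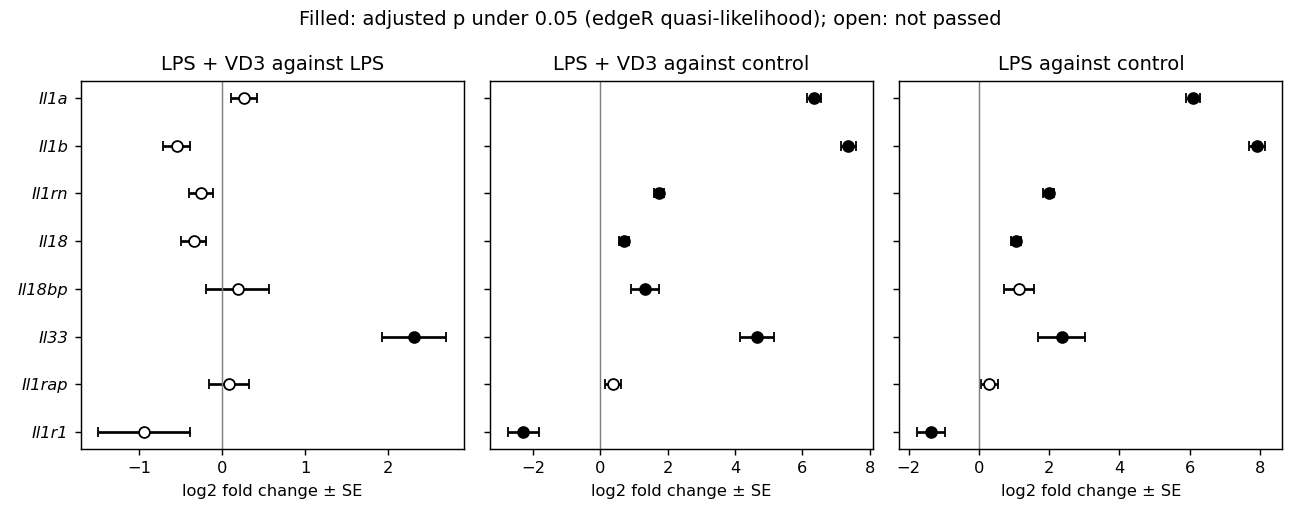
Log2 fold change of the 8 tested members with its SE in each comparison (edgeR quasi-likelihood, all 6 libraries). Filled points passed an adjusted p of 0.05, which holds for 1 of 8 members between LPS + VD3 and LPS, 7 of 8 between LPS + VD3 and control and 6 of 8 between LPS and control.

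The second question was what vitamin D3 (VD3) changed on top of LPS, from LPS + VD3 against LPS. The hormone made from it binds the vitamin D receptor, a transcription factor. Il33 was the 1 member of 8 that passed, and it rose. It had cleared the low-count filter only through the LPS + VD3 libraries, where it was highest. Its place among the tested members is therefore not independent of its rise. Of all genes 3.83% were called, 2.25% higher and 1.59% lower, and the members' median log2 fold change was -0.09, against -0.00253 over all genes. Where members are counted at an unadjusted p below, the share of all genes at that threshold is not given. The count over all genes, 411, ran from 55 without LPS + VD3 2 and 94 without LPS + VD3 1, over 246 and 247 without control 1 or control 2, to 3670 without LPS 2. The members called were 0 without either LPS + VD3 library, where 2 or 3 members had an unadjusted p under 0.05 in edgeR, and 3 without LPS 2.

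Il33 had 57 and 93 counts in LPS + VD3 and 21 and 9 in LPS, or 11.9 and 18.5 CPM against 4.31 and 1.82 CPM. Both LPS + VD3 libraries were above both LPS libraries. The log2 fold change was 2.31 ± 0.39 (edgeR adjusted p = 0.0100), the 52nd largest rise of all genes tested. It was 3.04 without LPS 1 (adjusted p = 0.00103) and 1.82 without LPS 2 (0.00272). The call was lost without LPS + VD3 1 (0.0536), without LPS + VD3 2 (0.186) and with no filter beyond 1 count (0.0594), while the log2 fold change stayed at or above 1.82 in all of the alternatives run.

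Il33 lies on chromosome 19 at 29925114 to 29960718 on the plus strand of mm10. RefSeq gives it 2 separate starts, and the 250 bases before each are shown because Il33 is the member that passed in this comparison. Capitals again mark motif matches.
Il33, first start, chr19:29924863-29925112, plus strand: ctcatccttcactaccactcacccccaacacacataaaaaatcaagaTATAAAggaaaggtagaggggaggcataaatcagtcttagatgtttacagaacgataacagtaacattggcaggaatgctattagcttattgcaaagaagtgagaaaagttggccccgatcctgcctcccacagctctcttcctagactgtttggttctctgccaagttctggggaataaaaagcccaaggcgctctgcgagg
Il33, second start, chr19:29945540-29945789, plus strand: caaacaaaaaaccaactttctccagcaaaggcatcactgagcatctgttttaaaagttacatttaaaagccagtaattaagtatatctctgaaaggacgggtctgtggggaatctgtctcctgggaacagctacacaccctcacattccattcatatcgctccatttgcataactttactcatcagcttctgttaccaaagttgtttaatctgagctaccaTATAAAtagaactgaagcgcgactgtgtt

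Before the second start TATAAA stood at 29 to 24 bases, and before the first at 203 to 198 bases. Neither window held the vitamin D receptor letters, which says nothing about sites elsewhere. Interleukin-33 is well known from epithelial, endothelial and stromal cells, so markers of those cells were read in the same libraries. Lung epithelium markers summed to 51.3 and 60.7 CPM in LPS + VD3, 47.4 and 47.7 CPM in LPS and 258 and 281 CPM in control. Of 14 epithelial markers 12 had any count, Sftpc and Scgb3a2 were at 0 in all libraries, and Cdh1 made up most of the sum. The lower epithelial sum in both stimulated groups came mostly from Cdh1 and Krt19. Cdh1 had 148 and 177 counts in LPS and 1295 and 1485 in control, and Krt19 had 23 and 17 against 161 and 203. Ager did not fall, at 11 and 7 counts in LPS and 3 and 6 in control, and Epcam had 5 counts or fewer in every library. The epithelial sum moved with Il1r1, and its part in the result for Il1r1 was not tested. Stromal and endothelial markers summed to 43.3 and 38.0 CPM in LPS + VD3, 56.2 and 48.1 CPM in LPS and 51.4 and 53.7 CPM in control. Of these 11 markers 9 had any count, and Col3a1 and Lum were at 0. Vwf made up most of that sum, at 193 and 180 counts in LPS + VD3 and 243 and 197 in LPS. Pdgfrb had 2 and 2 counts in LPS + VD3 and 17 and 20 in LPS. Between LPS + VD3 and LPS, where Il33 rose, the epithelial sum was slightly higher and the stromal and endothelial sum lower. The higher epithelial sum came mostly from Cdh1, at 179 and 250 counts in LPS + VD3 and 148 and 177 in LPS. Krt19 ran the other way, at 7 and 11 counts against 23 and 17. The part of such cells in the result for Il33 was not tested.

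Among the genes of the interleukin-1 receptor ligands, Il1b had 8082 and 7289 CPM in LPS + VD3 and 12300 and 10212 CPM in LPS. Both LPS + VD3 libraries were below both LPS libraries. The log2 fold change of -0.55 ± 0.16 did not pass (edgeR adjusted p = 0.10). Among the fits of all 6 libraries without a replicate block it passed with GC offsets (-0.67, adjusted p = 0.0215) and DESeq2 (-0.57, adjusted p = 0.0297). It did not pass with limma-voom (adjusted p = 0.0608), the other scalings (edgeR, 0.0877 and 0.0922) or no filter beyond 1 count (0.165). Nor did it pass with the compared libraries only (edgeR adjusted p = 0.235). In all, 5 of the 15 alternatives called Il1b. Its log2 fold change was -0.67 without LPS 2 and -0.42 without LPS 1. Il1a had 11456 and 13491 CPM in LPS + VD3 and 9644 and 11231 CPM in LPS. Here the LPS + VD3 libraries were the higher ones, by a narrow margin over LPS 2, and the log2 fold change of 0.26 ± 0.16 did not pass (edgeR adjusted p = 0.356). With GC offsets it was -0.028.

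Il1rn had 1820 and 2191 CPM in LPS + VD3 and 2355 and 2437 CPM in LPS, a log2 fold change of -0.26 ± 0.15 (edgeR adjusted p = 0.326, and 0.0396 at -0.54 with GC offsets). Il18 had 84.2 and 89.6 CPM in LPS + VD3 and 114 and 107 CPM in LPS. Its log2 fold change of -0.35 ± 0.15 had an edgeR adjusted p of 0.212, and without LPS 2 it was -0.39 with 0.0458. For both genes the libraries of the groups did not overlap, yet the difference did not pass. Il18bp had 15 and 26 counts in LPS + VD3 and 18 in each LPS library (0.19 ± 0.38). Il1r1 had 4 and 11 counts in LPS + VD3 and 9 and 20 in LPS (-0.94 ± 0.56), and Il1rap had 50.9 and 61.3 CPM in LPS + VD3 and 42.9 and 63.3 CPM in LPS (0.08 ± 0.24). These 3 genes overlapped between the groups, with edgeR adjusted p-values of 0.797 for Il18bp, 0.338 for Il1r1 and 0.871 for Il1rap. The value of Il1r1 moved to -0.26 without LPS 2, -0.43 without LPS + VD3 1 and -1.80 without LPS + VD3 2, none of them called.

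**Figure D3:**
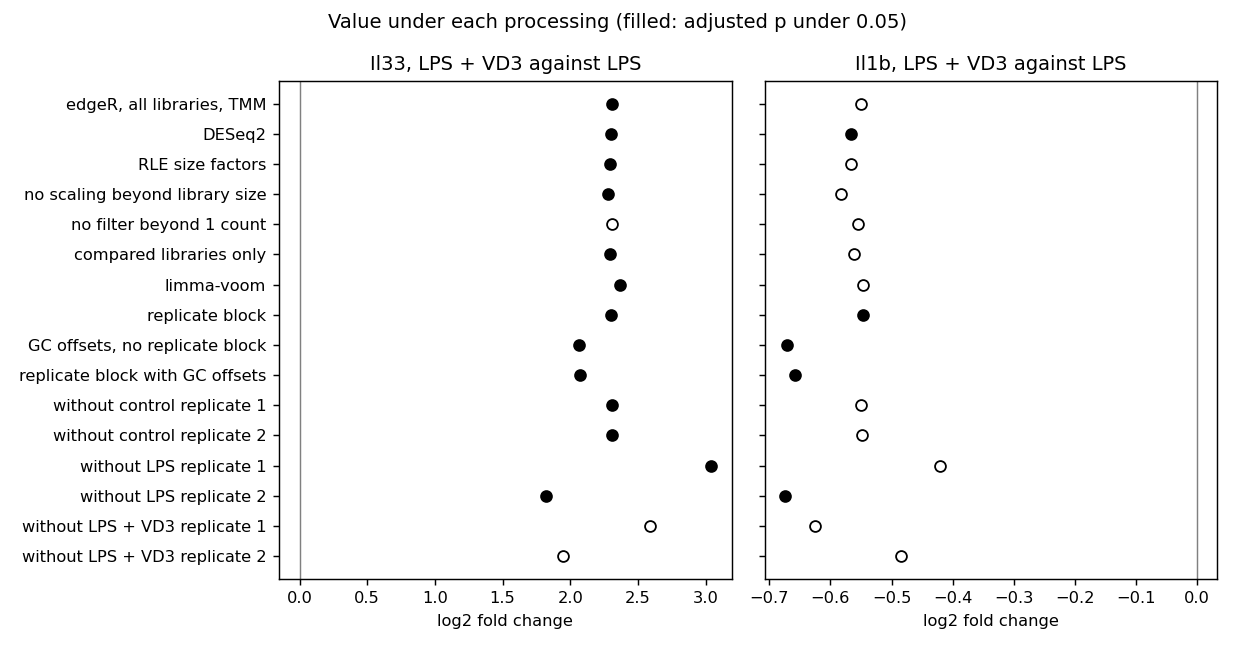
Log2 fold change of Il33 and Il1b in LPS + VD3 against LPS under the edgeR fit of all libraries and each alternative, with filled points for an adjusted p under 0.05. Il33 lies between 1.82 and 3.04 and Il1b between -0.67 and -0.42, and open points show the fits in which the call is not made.

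LPS + VD3 against control uses the same control libraries as LPS against control, so its values are given beside those and not as a second test of them. Of 8 tested members 6 rose and 1 fell, beside 35.0% of all genes called, and the members' median log2 fold change was 1.53, against 0.01 over all genes. Of all calls 50.5% were higher, and 25.9% without scaling, a setting that shifts the overall median by -0.33. The 3749 calls over all genes became 2126 without control 1, 2144 without control 2 and 2135 without LPS + VD3 2, and the members called became 5 in each of these fits and without scaling. Il1b was higher than control by 7.37 ± 0.22 in log2 units (edgeR adjusted p = 1.08e-08), Il1a by 6.34 ± 0.20 (2.05e-08) and Il1rn by 1.73 ± 0.15 (1.51e-05). Il33, at 57 and 93 counts in LPS + VD3 and 4 and 3 in control, was higher by 4.66 ± 0.50 (edgeR adjusted p = 6.37e-05). This difference was called in all 15 alternatives, with log2 fold changes of 4.28 to 4.94.

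Il1r1 had 0.837 and 2.19 CPM in LPS + VD3 and 7.54 and 7.69 CPM in control, with no overlap and a log2 decrease of -2.30 ± 0.46 (edgeR adjusted p = 0.00334). The value was -1.79 without LPS + VD3 1 and -3.18 without LPS + VD3 2, and it was called in all 15 alternatives. Il1r1 was already lower in LPS than in control (-1.36), and its difference between LPS + VD3 and LPS (-0.94) did not pass (edgeR adjusted p = 0.338). Of the members' windows searched, that before the first of 2 annotated starts of Il1r1 was the one that held the vitamin D receptor letters. They stand on the plus strand at 91 to 78 bases before the start. The window is shown because of that match, in capitals, which is not evidence of binding and was not tied to the fall by any test. Il1r1 lies on chromosome 1 at 40225080 to 40317257.
Il1r1, first start, chr1:40224830-40225079, plus strand: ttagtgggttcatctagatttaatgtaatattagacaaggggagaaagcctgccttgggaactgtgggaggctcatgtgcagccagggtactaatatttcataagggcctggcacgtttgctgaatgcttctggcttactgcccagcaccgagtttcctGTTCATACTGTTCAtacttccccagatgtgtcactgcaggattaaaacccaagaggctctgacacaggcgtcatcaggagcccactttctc

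Il18 rose by 0.71 ± 0.15 (edgeR adjusted p = 0.00504). Its call was lost without scaling (0.38, adjusted p = 0.0691), without control 1 (0.0673), without control 2 (0.0955) and without LPS + VD3 2 (0.0547). Il18bp rose by 1.32 ± 0.42 (edgeR adjusted p = 0.0339), but not with DESeq2 (0.132), without scaling (0.0823), with no filter beyond 1 count (0.0551) or without control 1 (0.219), control 2 (0.0992) or LPS + VD3 2 (0.273). Il1rap had 50.9 and 61.3 CPM in LPS + VD3 and 35.1 and 51.4 CPM in control, overlapped by a narrow margin and did not pass (0.37 ± 0.24, edgeR adjusted p = 0.261).

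Ratios of counts within a library do not depend on the scaling between libraries. The antagonist Il1rn had 0.225 and 0.301 counts per count of Il1b in LPS + VD3, 0.191 and 0.239 in LPS, and 12.3 and 13.8 in control. Antagonist RNA thus outnumbered Il1b RNA in control libraries and was outnumbered in all stimulated ones, and the LPS + VD3 and LPS values overlapped. Against Il1a, the ratio of Il1rn was 0.159 and 0.162 in LPS + VD3, 0.244 and 0.217 in LPS and 3.93 in each control library. Here the LPS + VD3 libraries were below both LPS libraries. The ratio of Il1a to Il1b was 1.42 and 1.85 in LPS + VD3, 0.784 and 1.10 in LPS, and 3.13 and 3.53 in control, with no overlap between any of the groups. The ratios are given as values with no test, and in 2 against 2 libraries an exact permutation test cannot give a two-sided p below 0.333. The longest transcripts of Il1a, Il1b and Il1rn have 41.3%, 46.3% and 41.6% GC, so that the shift of LPS 1 with GC can touch the ratios with Il1b. Its part in them was not tested. The ratio of Il18bp to Il18 was 0.0373 and 0.0578 in LPS + VD3, 0.0323 and 0.0341 in LPS and 0.0252 and 0.0372 in control, where the control values span those of LPS.

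**Figure D4:**
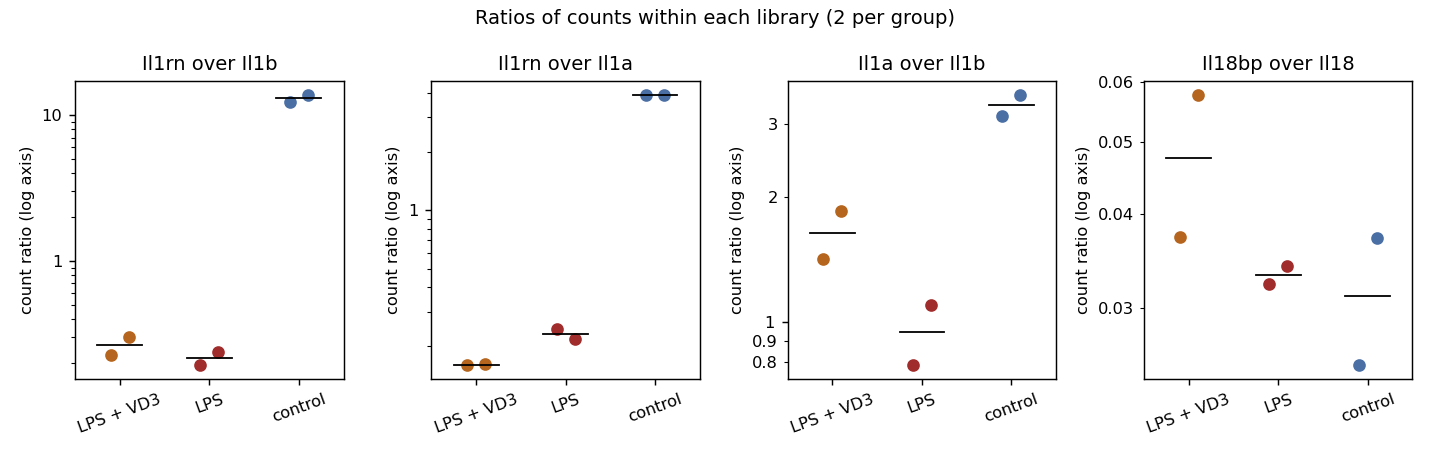
Ratio of counts of 2 genes in each library (log axes), with points for libraries and lines for group means. Il1rn over Il1b lies between 12.3 and 13.8 in control and below 0.31 in all 4 stimulated libraries, and Il1a over Il1b is 1.42 and 1.85 in LPS + VD3, 0.784 and 1.10 in LPS and 3.13 and 3.53 in control.

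Levels of different genes were compared as CPM per kilobase of the longest annotated transcript. In LPS + VD3 the order was Il1a (6319 ± 729; SD, n = 2 here and below), Il1b (5668 ± 414), Il1rn (785 ± 103), Il18 (98.2 ± 4.32), Il1rap (12.4 ± 1.63), Il33 (5.98 ± 1.83), Il18bp (1.60 ± 0.554) and Il1r1 (0.260 ± 0.164). Il1a and Il1b overlapped between the LPS + VD3 libraries, and the other neighbours in that order did not. In LPS the order began with Il1b (8301 ± 1089), ahead of Il1a (5288 ± 568) in both libraries. Il1rn (938 ± 22.9), Il18 (125 ± 5.98) and Il1rap (11.7 ± 3.20) followed. Il18bp (1.41 ± 0.0142) and Il33 (1.20 ± 0.692) overlapped in LPS, while Il1r1 (0.506 ± 0.267) was just below Il33 in LPS 2 and did not overlap it. In control the antagonist led, with Il1rn at 236 ± 4.80, Il1a at 77.9 ± 1.59, Il18 at 60.0 ± 2.17, Il1b at 34.2 ± 3.60 and Il1rap at 9.58 ± 2.55. Il1r1 (1.31 ± 0.0189) was above Il18bp (0.634 ± 0.151) and Il33 (0.229 ± 0.0568) in control, whereas in both stimulated groups Il1r1 was the lowest of the tested members.

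The remaining ligands and receptors of the family were read from a list of 12 genes, of which 5 had no count in any library and 4 were tested. In LPS against control 2 of the 4 rose and 1 fell, beside 15.7% and 16.2% of all genes. Il1f9, the older symbol of Il36g, whose product is an agonist of the interleukin-36 receptor, averaged 145 ± 11.1 CPM in LPS and 26.4 ± 2.41 CPM in control, a log2 fold change of 2.46 ± 0.17 (edgeR adjusted p = 2.83e-06). Il1f6, the older symbol of Il36a, another agonist of that receptor, had 214 counts over both LPS libraries and 1 over both control libraries, a ratio of 263 (95% exact counting interval 46.8 to 10447; edgeR adjusted p = 1.26e-06). Its fitted log2 fold change of 7.68 rests on that 1 control count and was 6.88 without control 1 and 9.79 without control 2. The receptor chain of these cytokines, Il1rl2, had a log2 decrease of -1.34 ± 0.23 (edgeR adjusted p = 0.00142), at 17.7 ± 4.14 CPM in LPS and 45.0 ± 3.05 CPM in control. The interleukin-33 receptor gene Il1rl1 had 42 counts over all 6 libraries and was not tested.

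Between LPS + VD3 and LPS, Il1f9 changed by -0.73 ± 0.16 in log2 units (edgeR adjusted p = 0.0320), with 87.6 ± 3.99 CPM in LPS + VD3 and 145 ± 11.1 CPM in LPS. The call was lost without either LPS + VD3 library (0.159 and 0.302), without control 1 or control 2 (0.106 each), with the compared libraries only (0.0904) and with no filter (0.0819). Il1f6 had 117 counts over both LPS + VD3 libraries and 214 over both LPS libraries and did not pass (-0.86, edgeR adjusted p = 0.0992). Compared with control, Il1f9 in LPS + VD3 rose by 1.73 ± 0.17 (edgeR adjusted p = 2.89e-05), Il1rl2 fell by 1.61 ± 0.24 (0.000494) and Il1f6 had a ratio of 144 (interval 25.4 to 5743; adjusted p = 5.93e-06), its fitted log2 fold change being 6.02 without control 1 and 8.93 without control 2.

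Of 28 genes of signalling below the receptors, all tested, 14 rose and 1 fell in LPS against control, beside 15.7% and 16.2% of all genes. The 1 that fell was Peli2, of the same family as Peli1, at -1.32 (edgeR adjusted p = 0.000999), named after its values were seen. Without scaling the counts were 12 and 3. The list's median log2 fold change was 0.59. Nfkbiz, an inducible nuclear cofactor of NF-kB, averaged 104 ± 15.5 CPM in LPS and 2.63 ± 0.813 CPM in control (5.29 ± 0.25, edgeR adjusted p = 2.13e-07). The NF-kB subunits Nfkb1 and Nfkb2 rose by 2.96 ± 0.15 and 3.94 ± 0.20. Between LPS + VD3 and LPS none of the 28 passed in edgeR, beside 3.83% of all genes, a share so low that a count of 0 is no result about the list. In edgeR 5 had an unadjusted p under 0.05, again given without the share of all genes at that threshold. With DESeq2 1 passed, and with limma-voom 0. Without LPS 2 the list's median log2 fold change was -0.042. Of the 28, 17 rose and 2 fell between LPS + VD3 and control, beside 17.7% and 17.3% of all genes. These counts were 12 and 6 without scaling and 12 and 0 without control 1 or control 2. Nfkbiz was at 5.73 ± 0.25, Nfkb1 at 2.92 ± 0.15 and Peli1, a ubiquitin ligase of the Irak complex, at 3.79 ± 0.20.

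Processing and release genes numbered 26, with 24 tested. In LPS against control 6 rose and 6 fell, beside 15.7% and 16.2% of all genes (5 and 11 without scaling, and 5 and 3 without either control library), with a median log2 fold change of -0.11. Nlrp3, the inflammasome sensor that licenses cleavage of interleukin-1 beta, averaged 499 ± 28.9 CPM in LPS and 27.2 ± 0.812 CPM in control (4.20 ± 0.16, edgeR adjusted p = 5.97e-08). Casp4, a caspase that senses LPS in the cytosol, rose by 2.54 ± 0.18, and the sensor gene Nlrp1b fell by 2.68 ± 0.28 on the log2 scale. Casp1 itself, the protease that cleaves both precursors, was at 0.40 and did not pass (edgeR adjusted p = 0.103); it is named here for its role.

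Of the same 24 genes, 1 rose and 1 fell in LPS + VD3 against LPS, beside 2.25% and 1.59% of all genes, shares near which 1 gene of 24 lies. In edgeR 11 of the 24 had an unadjusted p under 0.05. The share of all genes at that threshold is not given, so this count is no result about the list. The list's median log2 fold change was -0.24, against -0.00253 over all genes, and -0.26 without LPS 2. Naip2, a sensor component of the Nlrc4 inflammasome, rose by 0.78 ± 0.14 (edgeR adjusted p = 0.0154), and Txnip, a thioredoxin-binding protein, fell by 0.79 ± 0.14 on the log2 scale (0.0148). Both calls were lost without either LPS + VD3 library, for Naip2 at 0.103 and 0.186 and for Txnip at 0.132 and 0.178. They were also lost without control 1 (0.0692 for Naip2, 0.0687 for Txnip), without control 2 (0.0687 and 0.0689) and with the compared libraries only (0.0694 and 0.0600), and that of Naip2 with no filter (0.0530). Between LPS + VD3 and control 6 rose and 9 fell, beside 17.7% and 17.3% of all genes, with Nlrp3 at 3.62 ± 0.16, Casp4 at 2.18 ± 0.18 and Naip2 at 1.69 ± 0.15. These counts were 5 and 13 without scaling, 6 and 5 without control 1, 4 and 5 without control 2 or LPS + VD3 1, and 5 and 6 without LPS + VD3 2.

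**Figure D5:**
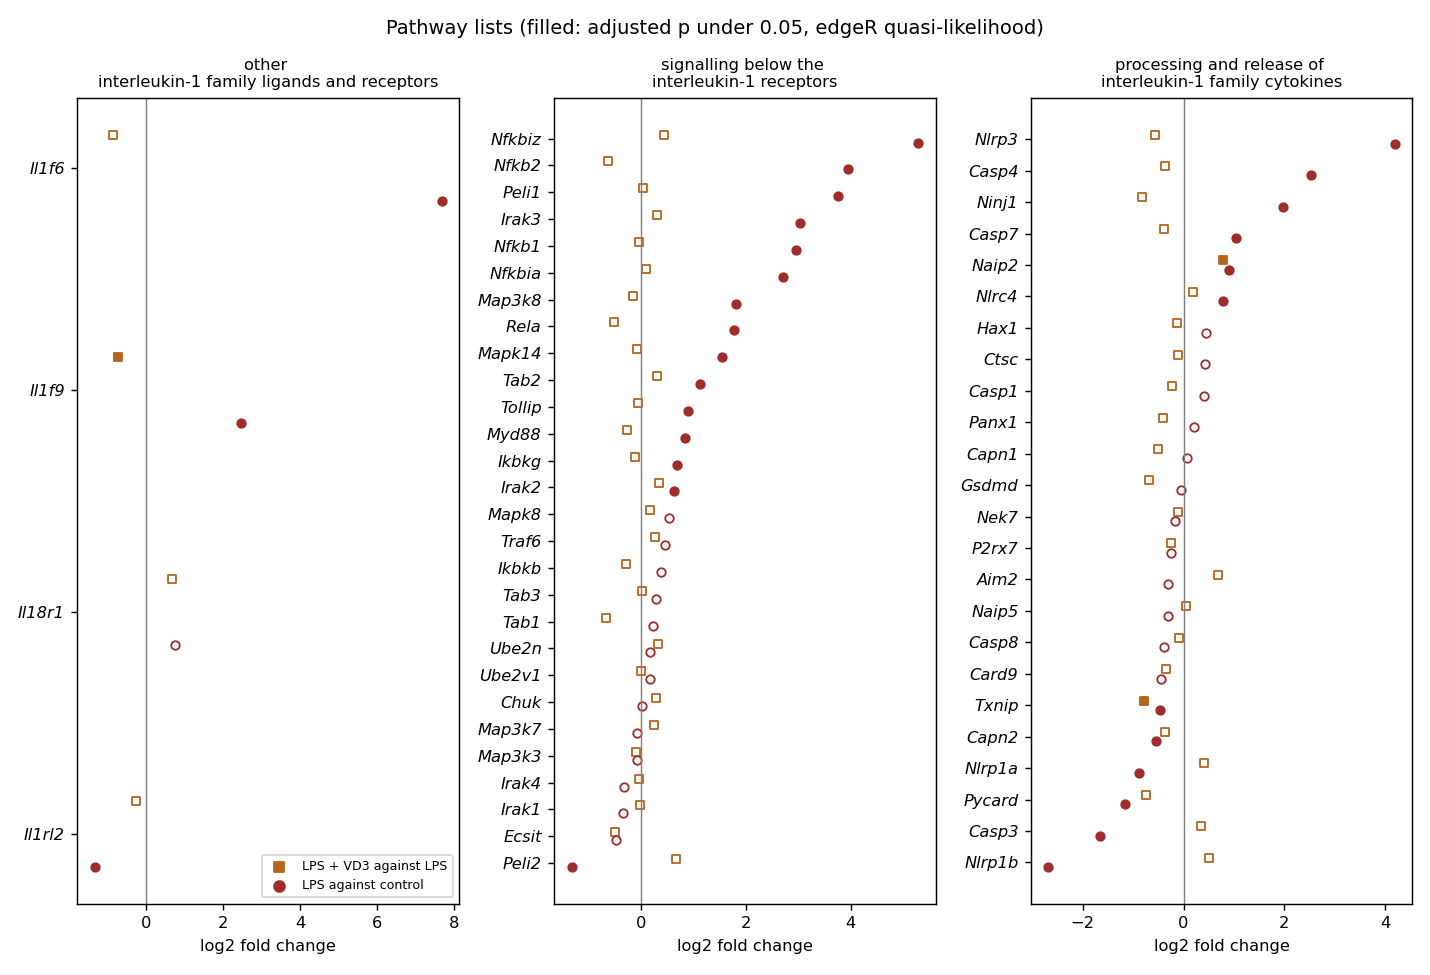
Log2 fold change of each tested gene of the 3 pathway lists in LPS + VD3 against LPS (squares) and LPS against control (circles), with filled symbols for an adjusted p under 0.05. Circles spread from -2.68 for Nlrp1b to a fitted 7.68 for Il1f6, which has 1 count in control, while squares stay between -0.86 and 0.78.

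Genes with the most similar pattern were found by the Euclidean distance of log2 CPM, centred per gene, over the 6 libraries, among genes with a mean log2 CPM of at least 2. For Il1b these were Oasl2 (distance 0.482, against a median of 8.85 over all genes compared) and Rtp4 (0.518). Both averaged 0.332 CPM in control, against 46.4 CPM for Il1b. At such low levels the prior count of 2, added before taking logs, shapes the distance. For Il1a they were Ccl3 (0.561) and Col5a3 (0.589). The antagonist Il1rn was nearest to Bcorl1 (0.159) and Rab32 (0.215), and Il18 to Acp2 (0.153) and Rnf145 (0.162). Il33 was nearest to Palld (0.772), which averaged 18.6 CPM in LPS + VD3, 6.02 CPM in LPS and 1.25 CPM in control, and then to Osm (1.01), at 317, 57.4 and 17.4 CPM in the same order of groups. Il1r1 was nearest to Rnf217 (0.634) and Frmd4b (0.648), Il18bp to S100pbp (0.288) and Gas8 (0.306), and Il1rap to Dnajc25 (0.123) and Stau2 (0.201). With 6 libraries in 3 groups, such distances describe the profile and are not tested.

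Markers of other cells known to carry these genes were also read. Neutrophils express Il1b and Il1r2. Any count was found for 8 of the 12 neutrophil markers listed, with sums of 81.0 and 90.8 CPM in LPS + VD3, 89.7 and 87.2 CPM in LPS and 62.9 and 66.8 CPM in control, while S100a9, Mpo, Elane and Retnlg were at 0 in every library. Within that sum Lcn2 had 33 and 44 counts in LPS + VD3, 162 and 100 in LPS and 2 and 0 in control. Mmp8 ran the other way with LPS, at 164 and 186 counts in LPS and 247 and 304 in control. All 10 monocyte and dendritic cell markers had counts, and their sums were 197 and 221 CPM in LPS + VD3, 281 and 380 CPM in LPS and 27.1 and 35.9 CPM in control, mostly from Vcan. Ccr2 ran the other way, at 1 and 1 counts in LPS + VD3, 3 and 5 in LPS and 33 and 48 in control. Clec9a did so too, at 22 and 27 counts in LPS and 92 and 143 in control. Both sums were higher in LPS than in control, as were Il1a and Il1b. They rose by far less than the log2 6.09 of Il1a and 7.92 of Il1b. The part of such cells in the results for these genes was not tested. Of 12 lymphocyte markers 9 had any count, with sums of 50.5 to 87.0 CPM over all 6 libraries and Cd3e, Cd79b and Nkg7 at 0. Of 8 mast cell and basophil markers 2 had any count, and no library passed a summed 0.41 CPM.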

How the data were processed

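RNA-seq of mouse alveolar macrophages was analysed from the count table the authors deposited, whole-number counts per gene symbol in 6 libraries. The extraction kit was Qiagen RNeasy Micro and the library kit KAPA mRNA HyperPrep, per the labels' protocols. TopHat2, edgeR and the mm10 build are named, without versions or order, in the submitters' processing notes. For the counting, neither the program nor the annotation, strand setting or handling of multiply mapped reads is given in the sources used here. A second, normalized table was not used.

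Groups were taken from the source names. Genes were kept by filterByExpr of edgeR 4.0.16 (minimum count 10, minimum total 15), in R 4.3.3, after which TMM factors were computed. All 6 libraries entered a quasi-likelihood model of 3 group means, and 3 contrasts were tested two-sided with Benjamini-Hochberg adjustment over 10724 genes at 0.05, after a test on simulated data. Each SE was obtained as the log2 fold change over the root of its F statistic. Alternatives used DESeq2 1.42.0, limma-voom (limma 3.58.1), other scalings, no filter, the compared libraries only, the replicate number as a block, offsets for GC content (known for 99.3% of genes tested) and leaving out each library. Positions, lengths and GC are from GENCODE M21 on mm10, and sequences from RefSeq on GRCm38.p6. CPM use the counts of tested genes as library sizes.

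All 9 members are named. From each pathway list the text names up to 3 genes per comparison with the smallest p among those called; Casp1 and Il1rl1 are named for their role. Members and lists were chosen with earlier results of these data known.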

Additional observations from a re-analysis of the deposited data

How the results depend on the processing

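The directions of Il1a, Il1b, Il1rn, Il18 and Il33 in LPS against control and in LPS + VD3 against control held in all alternatives that could be run, as did that of Il1r1; calls lost are given with each gene. Il33 had too few counts to be tested in LPS against control with the compared libraries only, Il1r2 entered only with no filter, and no ratio of Il1r2 to Il1r1 was made. In LPS + VD3 against LPS, the members called were 2 with DESeq2, 2 with the replicate block, 3 with GC offsets, 4 with the replicate block and GC offsets together, and 0 with no filter (3 at an unadjusted p under 0.05), and the genes called were 169 with no filter, 258 with the compared libraries only, 1152 with the replicate block, 763 with GC offsets and 1301 with both. Leaving out each library gave 55 to 3670 genes and 0 to 3 members in LPS + VD3 against LPS, 1940 to 4829 genes and 4 to 6 members in LPS against control, and 2126 to 5410 genes and 5 to 7 members in LPS + VD3 against control. Such fits leave 1 library in a group, which is assumed to vary like the others. In LPS + VD3 against LPS the sign of Il1a turned with GC offsets (-0.028) and with block and GC offsets (-0.024), and that of Il1rap with the same fits (-0.15 each) and over fits without a library (-0.18 to 0.39), as did that of Il18bp (-0.23 to 0.50). In LPS against control Il1rap was at -0.0014 without scaling and at -0.017 to 0.60 over fits without a library. None of these values was called.

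The source names give the same numbers to libraries of all groups. Deviations of libraries of equal number correlated across genes at 0.196 between LPS and LPS + VD3, 0.172 between control and LPS and 0.089 between control and LPS + VD3, and the source names of the VD3 libraries contain LPS1 and LPS2, which could mean that they pair with LPS 1 and LPS 2. No label states a shared animal, batch or day, so the fits without the block are the ones reported. With the replicate block, Il1b passed in LPS + VD3 against LPS (-0.55, edgeR adjusted p = 0.0253, against 0.10 without it), and the genes called there were 1152, against 411. With block and GC offsets, Il1rn, Il18 and Il1b passed there (adjusted p = 0.0182, 0.0239 and 0.00255), and Il18bp and Il1rap in LPS against control (0.0338 and 0.0368). The cause of these shifts was not tested. Counts below about 50 per library limit Il33, Il1r1 and Il18bp.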
